A study of Mus musculus with 27 samples.

Results

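The step from 30 h to 36 h after a serum pulse was examined in C2C12 myotubes, the contractile syncytia that this mouse myoblast line forms when serum is lowered. The comparison set the 3 libraries of 36 h against the 3 of 30 h, 6 of the 27 libraries of a series that sampled every 6 h from 12 h to 60 h. Both groups came from the same line and had been handled alike: growth in 10% FBS, plating at the same density, differentiation in 2% horse serum, and a pulse of 50% horse serum for 2 h. The labels list no other treatment or genetic change, and the groups differ in them only in the hours since the pulse. Whether 30 h and 36 h were collected and processed together is not stated. Any effect of the collection therefore cannot be told apart from that of time. No culture without the pulse was included, so time since the pulse and time in culture cannot be told apart. C2C12 is a single cell line, and nothing states that the 3 libraries of a time point came from separate cultures; p-values therefore reflect the spread of these libraries alone, and that spread may be technical.

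Serum given for a short time sets the phase of the circadian clock in cultured cells. In the clock, CLOCK and BMAL1 (encoded by Arntl) drive Per and Cry genes, whose proteins then repress them, and many output genes follow with a daily wave. Other transcription programmes respond to the state of the medium and the cell: the aryl hydrocarbon receptor to small aromatic ligands, HIF-1 to low oxygen, and ATF4 to a shortage of amino acids or other translational stress. Myotubes have left the cell cycle, while reserve myoblasts between them can still divide.

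The 30 h libraries held 20.8, 15.2 and 20.6 M counted reads and those of 36 h held 20.0, 19.0 and 23.4 M. Counts of same-time libraries differed beyond sampling noise in every pair, and each library was counted as 1 replicate. After a filter on low counts, 12687 of 20446 genes were tested. Levels are given as CPM, read counts scaled to library size. Summed levels of 15 myotube markers were 16585 to 17927 at 30 h and 16487 to 18900 at 36 h. Summed immune markers were at 8.08 to 9.59 and 6.88 to 8.31 CPM with Tyrobp and Cd3e at 0, and adipocyte markers at 19.8 to 22.3 and 18.1 to 21.99 CPM with Cidec and Cfd at 0. Bone and cartilage markers summed to 30.1 to 49.0 and 29.9 to 42.9 CPM with Ibsp and Acan at 0. Neural markers were higher, at 192 to 225 CPM at 30 h and 203 to 237 CPM at 36 h, with Rbfox3, Snap25 and Sox10 at 0. In bulk RNA, fewer cells of a type and less RNA per cell cannot be told apart.

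Few genes passed the test. At an adjusted p under 0.05 in edgeR, fitted on all 27 libraries, 17 genes were higher at 36 h than at 30 h, which is 0.134% of the genes tested, and 7 were lower, which is 0.0552%. In each of these 24 genes the 3 libraries of one time point lay wholly above the 3 of the other, which also held for 8.02% of all genes tested. Only Aldh3a1 and Ahrr, both lower, changed at least 2-fold. The median change over all genes was -0.0032 on the log2 scale. Unadjusted p was under 0.05 for 636 genes, where 5% of the genes tested would be 634.

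Libraries of the same replicate number deviated together at 30 h and 36 h (correlations 0.112, 0.447 and 0.480), so the numbers were also used as a block. Libraries of other numbers had correlations of -0.472 to 0.122, the highest of which, between replicate 2 of 30 h and replicate 1 of 36 h, exceeds that of the pair numbered 1. With the replicate block, 89 genes were higher (0.702% of the genes tested) and 42 lower (0.331%), and all 24 genes were among them. The count also depended on single libraries. Without replicate 1, 2 or 3 of 30 h, 7, 8 and 7 genes were higher and 4, 4 and 3 lower; without replicate 1, 2 or 3 of 36 h, 9, 6 and 10 were higher and 4, 2 and 4 lower. Ahrr, Aldh3a1, Col8a2, Gja5, Pdk1, Rflnb and Tgm2 stayed called in all 6 of these refits. Fitted on the 6 libraries alone, edgeR called 0 genes (lowest adjusted p 0.157, with 425 genes at an unadjusted p under 0.05), and 89 higher and 33 lower with the block.

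**Figure D1:**
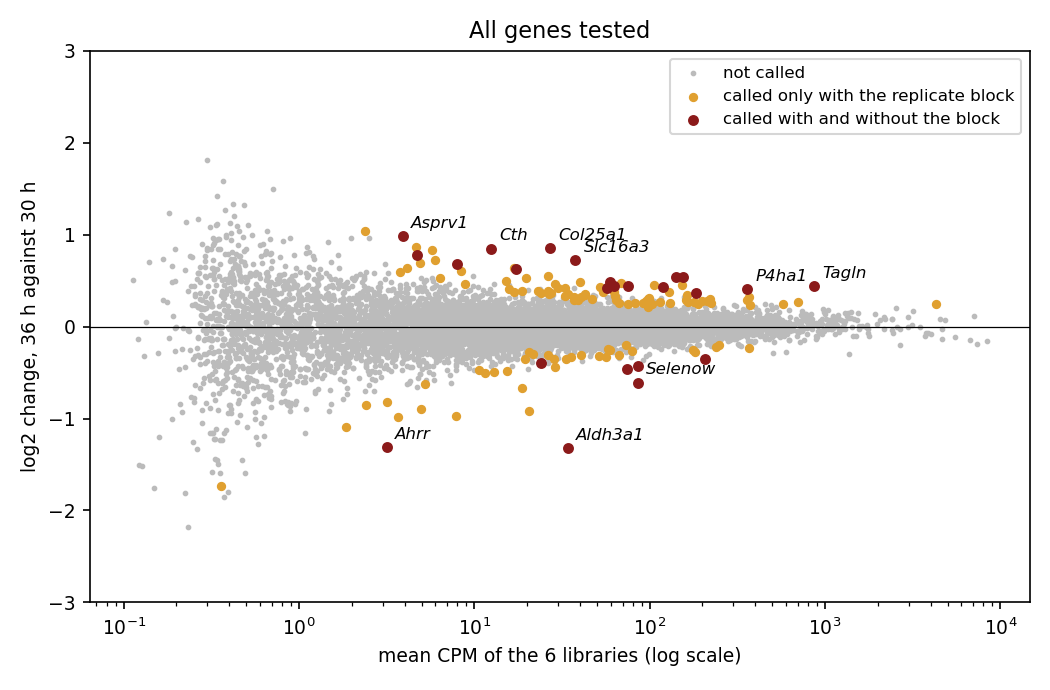
Log2 change from 30 h to 36 h (vertical axis) against the mean level over the 6 libraries in CPM (horizontal log axis), 1 point per gene tested. Dark red points are the 24 genes called with and without the replicate block and orange points those called only with it; Aldh3a1 and Ahrr lie lowest among the dark red points, at -1.32 and -1.31.

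**Figure D2:**
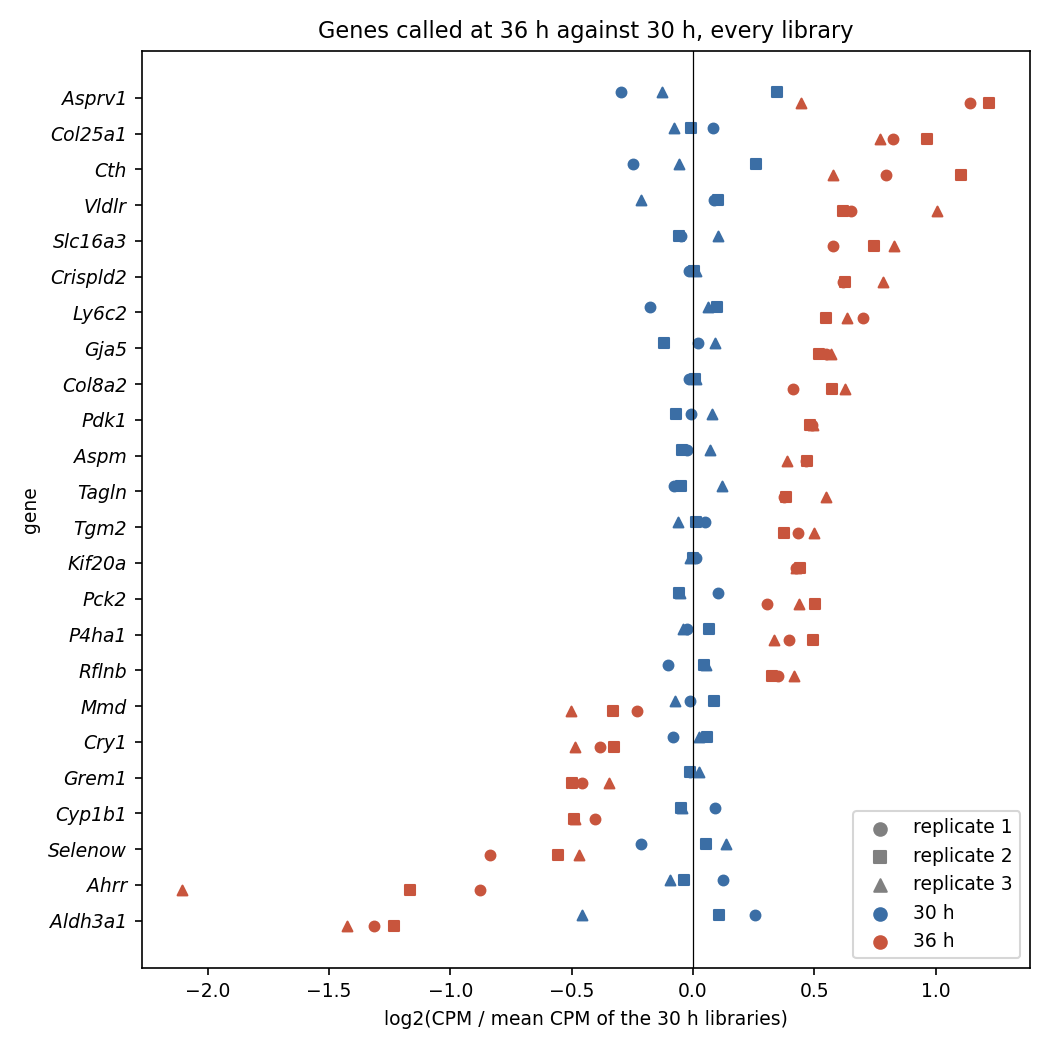
Level of each called gene in every library, as log2 of CPM over the mean CPM of the 30 h libraries (horizontal axis); colour gives the time point and marker shape the replicate number. In none of the 24 genes do the 30 h and 36 h points overlap.

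Of the 7 genes that fell, those with the largest change, Aldh3a1 and Ahrr, belong to the aryl hydrocarbon receptor programme. Of the 8 tested members of that list of 12, 3 fell (Aldh3a1, Ahrr and Cyp1b1) and 0 rose, against 0.0552% and 0.134% of all genes tested. The median change of the 8 was -0.27. Beside targets, the list holds the receptor gene Ahr, its partner Arnt and Nfe2l2, which encodes NRF2. Promoters are shown for the 2 of the 3 fallen genes with a RefSeq entry (GRCm38.p6, the mm10 build, 250 bases before to 50 after the start). They are printed because the receptor and its partner ARNT bind a short element with the core GCGTG. Capitals mark this core on either strand (CACGC on the other). The Ahrr window is chr13:74292282-74292581 on the minus strand, with the core starting at -107, -82 and -27 from the start site. That of Cyp1b1 is chr17:79715012-79715311, also on the minus strand, with 1 core at -76.
Ahrr: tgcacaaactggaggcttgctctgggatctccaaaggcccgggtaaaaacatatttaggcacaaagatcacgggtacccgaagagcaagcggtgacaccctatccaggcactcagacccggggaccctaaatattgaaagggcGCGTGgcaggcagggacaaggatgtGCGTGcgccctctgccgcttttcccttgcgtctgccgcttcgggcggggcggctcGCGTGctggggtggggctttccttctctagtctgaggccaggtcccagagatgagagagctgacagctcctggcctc
Cyp1b1: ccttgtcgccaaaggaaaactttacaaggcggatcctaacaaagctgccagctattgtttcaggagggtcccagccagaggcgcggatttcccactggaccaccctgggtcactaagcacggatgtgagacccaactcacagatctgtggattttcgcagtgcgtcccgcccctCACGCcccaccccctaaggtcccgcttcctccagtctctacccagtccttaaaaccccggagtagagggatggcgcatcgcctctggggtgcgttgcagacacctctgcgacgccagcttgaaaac
A core of 5 letters is common: 51.9% of the 9972 promoters of tested genes hold it, as do 4 of the 6 listed for this programme. A match describes the letters only.

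Aldh3a1 encodes an aldehyde dehydrogenase that oxidises aromatic and fatty aldehydes, and lies at chr11:61207537-61218421. Its level was 58.3, 52.6 and 35.6 CPM at 30 h and 19.6, 20.8 and 18.2 CPM at 36 h. All 36 h libraries were below all 30 h libraries, although replicate 3 of 30 h was well below the other two. The fitted level was 2.50-fold lower at 36 h (log2 change -1.32 ± 0.17 SE, edgeR adjusted p = 0.00181).

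Ahrr, the repressor of the receptor and itself one of its target genes (chr13:74211118-74292331), fell from a low level. It was at 4.91, 4.40 and 4.23 CPM at 30 h, from 101, 67 and 86 reads, and at 2.45, 2.01 and 1.05 CPM at 36 h, from 49, 38 and 24 reads. Replicate 3 of 36 h was lowest and the groups did not overlap. The fitted level was 2.48-fold lower (log2 change -1.31 ± 0.21 SE, adjusted p = 0.00529).

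Cyp1b1, a cytochrome P450 that oxidises steroids and aromatic hydrocarbons (chr17:79701537-79715061), had a smaller estimate. Its libraries were at 91.4, 83.1 and 83.1 CPM at 30 h and at 65.0, 61.1 and 61.4 CPM at 36 h, tight within each time point and without overlap. The log2 change was -0.46 ± 0.08 (SE), with an adjusted p of 0.0167. This call was lost without replicate 1 or 3 of 30 h (adjusted p = 0.172 and 0.0511) or without replicate 2 or 3 of 36 h (0.129 and 0.0748).

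Nqo1, a quinone reductase driven by both this receptor and NRF2, was called only with the block (adjusted p = 0.00612, against 0.230 without it). It was at 27.2, 24.6 and 17.0 CPM at 30 h and 15.7, 15.7 and 11.8 CPM at 36 h. Of 29 genes on the NRF2 and glutathione list 0 were called without the block and 3 were lower with it, against 0.331% of all genes tested. They were Gstm1, a glutathione transferase (log2 change -0.48, blocked adjusted p = 0.00823), Txnrd1, the cytosolic thioredoxin reductase (-0.20, 0.0232) and Nqo1. The receptor itself did not pass the test: Ahr was at a mean of 61.0 CPM at 30 h and 64.7 CPM at 36 h (log2 change 0.08). Its partner Arnt was at 79.1 and 75.2 CPM, and Tiparp, a further target, at 103.6 and 106.0 CPM.

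Among genes that rose, ATF4 targets made up 3 of 17. ATF4 is the transcription factor of the integrated stress response, and its targets include enzymes of amino acid synthesis. Of 31 tested members of the list 3 rose (Pck2, Cth and Vldlr), 0 fell, 25 had a positive estimate and the median was 0.18. Over all genes tested, 6188 of 12687 estimates were positive and 0.134% were called higher. The medians of the 3 same-number differences were 0.06, 0.17 and 0.26. The promoter of Pck2 (chr14:55540016-55540315, plus strand, RefSeq on GRCm38.p6) is printed because it holds 1 copy of TGATGNAA, the core of the amino acid response element, in capitals and on the opposite strand, at -103 from the start.
Pck2: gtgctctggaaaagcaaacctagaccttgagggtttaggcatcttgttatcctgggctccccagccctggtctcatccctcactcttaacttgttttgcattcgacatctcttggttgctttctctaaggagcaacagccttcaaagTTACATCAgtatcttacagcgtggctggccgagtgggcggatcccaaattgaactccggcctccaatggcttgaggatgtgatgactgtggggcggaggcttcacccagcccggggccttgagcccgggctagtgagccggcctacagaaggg
This element was in 2.25% of the 9972 promoters and in 9 of the 27 found for the list. The Vldlr window of the same length (chr19:27216234-27216533) had 0 matches.

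Cth, the enzyme that releases cysteine from cystathionine, was at 7.54, 10.7 and 8.61 CPM at 30 h and 15.5, 19.3 and 13.3 CPM at 36 h. The groups did not overlap, and replicate 2 was highest at both times. The fitted level was 1.80-fold higher at 36 h (log2 change 0.85 ± 0.16 SE, adjusted p = 0.0271).

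Pck2, the mitochondrial phosphoenolpyruvate carboxykinase, went from 52.3, 46.8 and 47.0 CPM to 60.1, 69.1 and 65.8 CPM. Replicate 1 moved least, by 0.20 on the log2 scale against 0.56 and 0.49 in the others. The log2 change was 0.42 ± 0.08 (SE), adjusted p = 0.0173. An antisense gene, Gm10876, overlaps its exons, and since the strand setting of the counting is not given, reads of the pair cannot be told apart.

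Vldlr, the very low density lipoprotein receptor, was scarce, at 3.70, 3.74 and 3.00 CPM at 30 h and 5.46, 5.34 and 6.995 CPM at 36 h. The log2 change was 0.78 ± 0.15 (SE), adjusted p = 0.0277, and limma-voom did not call it (adjusted p = 0.0664). Its call was lost in each of the 6 refits without 1 library (adjusted p 0.0544 to 0.220). Cth was called only without replicate 2 of 30 h or replicate 3 of 36 h, and otherwise had an adjusted p of up to 0.260. Pck2 was called only without replicate 1 of either time, with up to 0.141 in the others.

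With the block, Atf4 itself and Trib3, a pseudokinase that restrains it, were also higher. Atf4 was at 338, 307 and 323 CPM at 30 h and 376, 417 and 387 CPM at 36 h, without overlap (log2 change 0.28, adjusted p = 0.0538, blocked 0.00724). Trib3 averaged 13.2 CPM at 30 h and 20.6 CPM at 36 h (log2 change 0.64, blocked adjusted p = 0.0202). Members that did not pass either fit included Fgf21, with a log2 change of -0.47, and Slc7a11, the cystine transporter, with 0.55. None of the 24 tested genes of the unfolded protein response list was called in either fit, and their median was 0.05.

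Genes that HIF-1 is known to drive, and those of glycolysis, held 3 further genes that rose. Of 29 tested hypoxia targets, Pdk1 and P4ha1 rose, 0 fell and 23 had a positive estimate; the median was 0.15, and 0.16, 0.16 and 0.17 in the 3 same-number differences. Of 23 glycolysis genes, Slc16a3 rose and 18 had a positive estimate (median 0.18). With the block the counts were 7 and 2 higher and 0 lower. Over all genes tested, 0.134% were called higher, 0.702% with the block, and 6188 of 12687 estimates were positive. Both lists hold Hk2, Slc2a1 and Pfkfb3, so their counts are not separate.

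Pdk1, the kinase that switches off pyruvate dehydrogenase (chr2:71873224-71903858), was among the most even of the genes called. It was at 48.8, 46.8 and 51.8 CPM at 30 h and 69.1, 68.6 and 69.1 CPM at 36 h, 1.40-fold higher. The log2 change was 0.49 ± 0.08 (SE), adjusted p = 0.00438.

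Slc16a3, the lactate exporter MCT4, stood at 27.4, 27.3 and 30.5 CPM and then at 42.3, 47.6 and 50.5 CPM. It was 1.65-fold higher (log2 change 0.72 ± 0.13 SE, adjusted p = 0.0139), and each 36 h library exceeded each 30 h library by a wide margin. Its call was kept only without replicate 3 of 30 h or replicate 1 of 36 h; without the others adjusted p was 0.0684 to 0.0880.

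P4ha1, the catalytic subunit of the prolyl hydroxylase that matures collagen, was at 302, 322 and 299 CPM and then at 405, 433 and 388 CPM. Its log2 change was 0.41 ± 0.08 (SE), adjusted p = 0.0339. Replicate 2 was the highest library at both times. The call was lost without any 1 of the 6 libraries (adjusted p 0.0708 to 0.218).

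Further hypoxia targets were called with the block only, not all of which are named here. The largest estimate on the list was 1.04, in a member not named here that was not called without the block. Bnip3, a mitophagy receptor, was at 22.5, 22.1 and 19.3 CPM at 30 h and 31.4, 33.0 and 29.3 CPM at 36 h (log2 change 0.55, adjusted p = 0.0831, blocked 0.000196). Vegfa, the angiogenic growth factor, was at 104, 105 and 129 CPM and then 129, 152 and 157 CPM, with replicate 3 of 30 h only just below replicate 1 of 36 h (0.38, adjusted p = 0.204, blocked 0.0101). Against the direction of the list, 6 of the 29 estimates were negative and none was called; the lowest were those of Selenbp1 (-0.51 ± 0.49 SE, at 0.375 and 0.266 CPM), Pfkfb3 (-0.35) and Angptl4 (-0.17). Pfkl, the liver-type phosphofructokinase, averaged 129.7 CPM at 30 h and 177.7 CPM at 36 h (0.45, blocked adjusted p = 0.00146).

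Genes of cell division had small positive estimates throughout. All 40 mitosis genes had a positive estimate, with a median of 0.27, and 27 of them had an unadjusted p under 0.05. Over all 12687 genes tested, 6188 estimates were positive, 359 of them with an unadjusted p under 0.05. The 3 same-number medians were 0.24, 0.32 and 0.24. At the adjusted threshold Kif20a and Aspm rose and 0 fell, against 17 and 7 of all genes tested. With the block 15 were higher, against 89 of all genes tested.

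Kif20a, a kinesin of cytokinesis, was at 102, 101 and 100 CPM at 30 h and 136, 137 and 136 CPM at 36 h. Libraries of a time point were almost level, and the fitted level was 1.35-fold higher (log2 change 0.43 ± 0.08 SE, adjusted p = 0.0173). Aspm, a spindle pole protein, was at 51.9, 51.2 and 55.5 CPM and then 73.0, 73.2 and 69.2 CPM (log2 change 0.44 ± 0.09 SE, adjusted p = 0.0301). Both calls were lost without any 1 of the 6 libraries, with an adjusted p of 0.0708 to 0.102 for Kif20a and 0.0748 to 0.217 for Aspm. Kif20a shares exon sequence with Cdc23 on the other strand, whose reads cannot be told apart from its own.

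The block also called Dlgap5, a spindle assembly factor, at 32.6, 36.6 and 30.7 CPM and then 42.6, 51.4 and 45.4 CPM (log2 change 0.48, blocked adjusted p = 0.000113, 0.224 without the block). Hmmr, a spindle-associated hyaluronan-binding protein, was at 50.0, 49.3 and 49.1 CPM and then 68.9, 69.5 and 60.9 CPM (0.43, blocked 0.00724, 0.116 without). Ccna2, the cyclin of S and G2 phase, had 0.27 (blocked 0.0179), and Cdc20, the activator of the anaphase ligase, 0.37 (blocked 0.0305).

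Among DNA replication genes 37 of 42 estimates were positive with a median of 0.08, and none was called with or without the block. All 33 replication-dependent histone genes had a positive estimate and a median of 0.24, but the same-number medians were 0.36, 0.05 and 0.31, and 0 were called (1 with the block, Hist1h1a at 0.38). Some of these histone genes are near-identical copies of each other, so the split of reads among such copies is uncertain. Around the step, Kif20a averaged 139 ± 9.5 CPM at 24 h, 101 ± 0.99 CPM at 30 h, 136 ± 0.88 CPM at 36 h and 129 ± 8.1 CPM at 42 h (SD, n = 3), so that 30 h had the lowest mean of the 4. The neighbouring steps share libraries with this one, so only levels are given.

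The other genes that rose included 2 collagens and 1 smooth muscle marker. Col25a1, a transmembrane collagen of muscle (chr3:130131501-130599877), was at 20.5, 19.2 and 18.3 CPM at 30 h and 34.2, 37.7 and 33.0 CPM at 36 h. It was 1.81-fold higher (log2 change 0.85 ± 0.14 SE, adjusted p = 0.00726), with no library near the other group. Without replicate 3 of 30 h or replicate 2 of 36 h its adjusted p was 0.0691 and 0.0633. Col8a2, a short-chain network collagen, was at 114, 116 and 116 CPM and then 153, 171 and 178 CPM (0.54 ± 0.08, adjusted p = 0.00294). These were the only 2 of 26 collagens called without the block, against 0.134% of all genes tested called higher. Of the 26 estimates 12 were positive and the median was -0.01.

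Gja5, the gap junction protein connexin 40, was at 128, 116 and 135 CPM at 30 h and 185, 181 and 187 CPM at 36 h. The groups lay far apart, 1.46-fold in the fit (log2 change 0.54 ± 0.08 SE, adjusted p = 0.00294). Its exons overlap those of Gpr89 on the other strand. Summed levels of 10 endothelial markers were 1.31 to 1.48 CPM at 30 h and 1.57 to 2.10 CPM at 36 h with Tie1 and Emcn at 0, and their part in this result was not tested.

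Tagln, the actin-binding protein transgelin, was at 693, 706 and 793 CPM and then 946, 953 and 1069 CPM, with replicate 3 highest at both times. The log2 change was 0.44 ± 0.08 (SE), adjusted p = 0.00982, and the call was lost without replicate 1 or 2 of 30 h (0.0858 and 0.0821) or replicate 3 of 36 h (0.0748). Pcsk7 and Gm48529 overlap it on the other strand. It was the only called gene of 12 smooth muscle markers tested, whose median was 0.14 and of which 10 had a positive estimate. Of all genes tested 0.134% were called higher, 0.702% with the block, and 6188 of 12687 estimates were positive. The block added Cnn1 (0.43, blocked adjusted p = 0.00776), Actg2 (0.32, 0.0124) and Acta2 (0.24, 0.0401), which encode calponin and the enteric and vascular smooth muscle actins. The summed level of all 14 markers on the list was 9139 to 10046 CPM at 30 h and 9860 to 11367 CPM at 36 h, and myoblasts and young myotubes are known to express such genes.

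Both Tgm2, a transglutaminase that crosslinks proteins, and Rflnb, a filamin-binding protein, lay outside the rule for named genes and were picked after their values were seen, since they were the remaining calls. Tgm2 was at 66.6, 64.8 and 61.5 CPM and then 86.9, 83.5 and 90.9 CPM (log2 change 0.44 ± 0.07 SE, adjusted p = 0.00294). Rprd1b and Gm20412 overlap it on the other strand. Rflnb was at 150, 166 and 167 CPM and then 205, 202 and 215 CPM (0.36 ± 0.06, adjusted p = 0.00294). Neither gene had overlapping groups.

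Asprv1, an aspartic protease best known from skin, had the largest estimate among the genes that rose, at a low level. It was at 2.14, 3.35 and 2.41 CPM at 30 h and 5.81, 6.14 and 3.59 CPM at 36 h. Replicate 3 of 36 h was only just above replicate 2 of 30 h. The log2 change was 0.99 ± 0.20 (SE), adjusted p = 0.0361, and limma-voom did not call it (0.0772). Its call was kept only without replicate 2 of 30 h or replicate 3 of 36 h, with an adjusted p of up to 0.389 in the other refits.

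Crispld2, a secreted cysteine-rich protein, was at 6.03, 6.11 and 6.15 CPM and then 9.37, 9.42 and 10.5 CPM (log2 change 0.68 ± 0.14 SE, adjusted p = 0.0283). Ly6c2, a lipid-anchored surface antigen, was at 12.1, 14.6 and 14.3 CPM and then 22.2, 20.0 and 21.2 CPM (0.63 ± 0.12, adjusted p = 0.0277). The Ly6c2 value is uncertain because its paralog Ly6c1 is nearly identical. Both genes lost their call without any 1 of the 6 libraries (adjusted p 0.0759 to 0.188 for Crispld2 and 0.0772 to 0.288 for Ly6c2).

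The remaining genes that fell were Grem1, Selenow, Mmd and Cry1. Grem1, a secreted antagonist of bone morphogenetic proteins, was at 97.8, 97.6 and 100 CPM at 30 h and 71.8, 69.7 and 77.4 CPM at 36 h, 1.35-fold lower. Its log2 change was -0.43 ± 0.08 (SE), adjusted p = 0.0121. It was the only one of 32 genes on the TGF beta, activin and myostatin list to pass, against 0.0552% of all genes tested called lower. The block added Fst, which encodes follistatin and was higher (0.28, blocked adjusted p = 0.0101), and Inhbb, an activin subunit, which was lower (-0.22, blocked 0.0101). The Grem1 call was kept only without replicate 2 of 30 h or replicate 3 of 36 h, with an adjusted p of up to 0.129 otherwise.

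Selenow, a small selenoprotein abundant in muscle, was at 89.4, 108 and 114 CPM and then 58.1, 70.5 and 74.9 CPM. In both groups replicate 1 was lowest and replicate 3 highest, and each pair fell by a like amount (-0.62, -0.61 and -0.60 on the log2 scale). The fitted change was -0.61 ± 0.12 (SE), adjusted p = 0.0277. Mmd, a membrane protein of the progestin and adipoQ receptor family, was at 229, 245 and 220 CPM and then 197, 184 and 163 CPM (-0.35 ± 0.06, adjusted p = 0.0173). Selenow stayed called only without replicate 1 of 30 h or replicate 3 of 36 h (adjusted p up to 0.202 otherwise), and Mmd only without replicate 3 of 30 h or replicate 1 of 36 h (up to 0.150). Gm45716 and Gm45883 overlap exons of Mmd on the same strand, which leaves the split of its reads uncertain.

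Of the 25 core clock genes tested, Cry1 fell and 0 rose, with the block as well. Of all genes tested 0.0552% were called lower, and 0.331% with the block. Cry1, a repressor of CLOCK and BMAL1, was at 25.8, 28.4 and 27.8 CPM at 30 h and 20.9, 21.8 and 19.5 CPM at 36 h. It was 1.32-fold lower (log2 change -0.40 ± 0.08 SE, adjusted p = 0.0271), and its highest 36 h library stayed below its lowest 30 h library. Without the low count filter the adjusted p was 0.0597. The call was kept only without replicate 1 of 30 h, with an adjusted p of 0.0638 to 0.164 in the other refits.

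The other clock genes did not pass. Dbp, an output gene of the clock, was at 6.37, 6.44 and 5.76 CPM and then 7.06, 7.73 and 7.83 CPM, without overlap (log2 change 0.29, adjusted p = 0.584). Per2 was at 9.83, 9.52 and 10.9 CPM and then 6.61, 6.99 and 10.2 CPM, where replicate 3 of 36 h lay within the 30 h range (-0.34, adjusted p = 0.993). Estimates for Per1 and Per3 were -0.37 each and for Cry2 -0.32, against 0.20 for Arntl and 0.08 for Nr1d1, which encodes REV-ERB alpha. Replicates of Nr1d1 ranged from 6.50 to 10.7 CPM at 30 h and from 6.83 to 13.9 CPM at 36 h, so that its SE was 0.41. Clock and Nr1d2 had estimates of -0.04 and 0.02. The median over the clock list was -0.02.

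The muscle programme itself showed no called gene without the block. Among 15 myotube markers the median was 0.02, and among 55 sarcomere genes it was 0.06 (1 called with the block, Mybpc2 at 0.24). No gene of the ribosomal proteins (75 tested) or the respiratory chain (78) was called in either fit, and their same-number medians had mixed signs. Of 25 cholesterol synthesis genes 23 had a positive estimate (median 0.17) and 0 were called; the block called Ebp (0.25), Fdft1 (0.26) and Cyp51 (0.27) higher. Interferon response genes had a median of -0.20 with 30 of 37 estimates negative, but the same-number medians were -0.32, -0.03 and -0.09. No interferon response gene was called in either fit. Over all genes tested, 6188 estimates were positive and 6499 negative, and 0.702% were higher with the block.

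**Figure D3:**
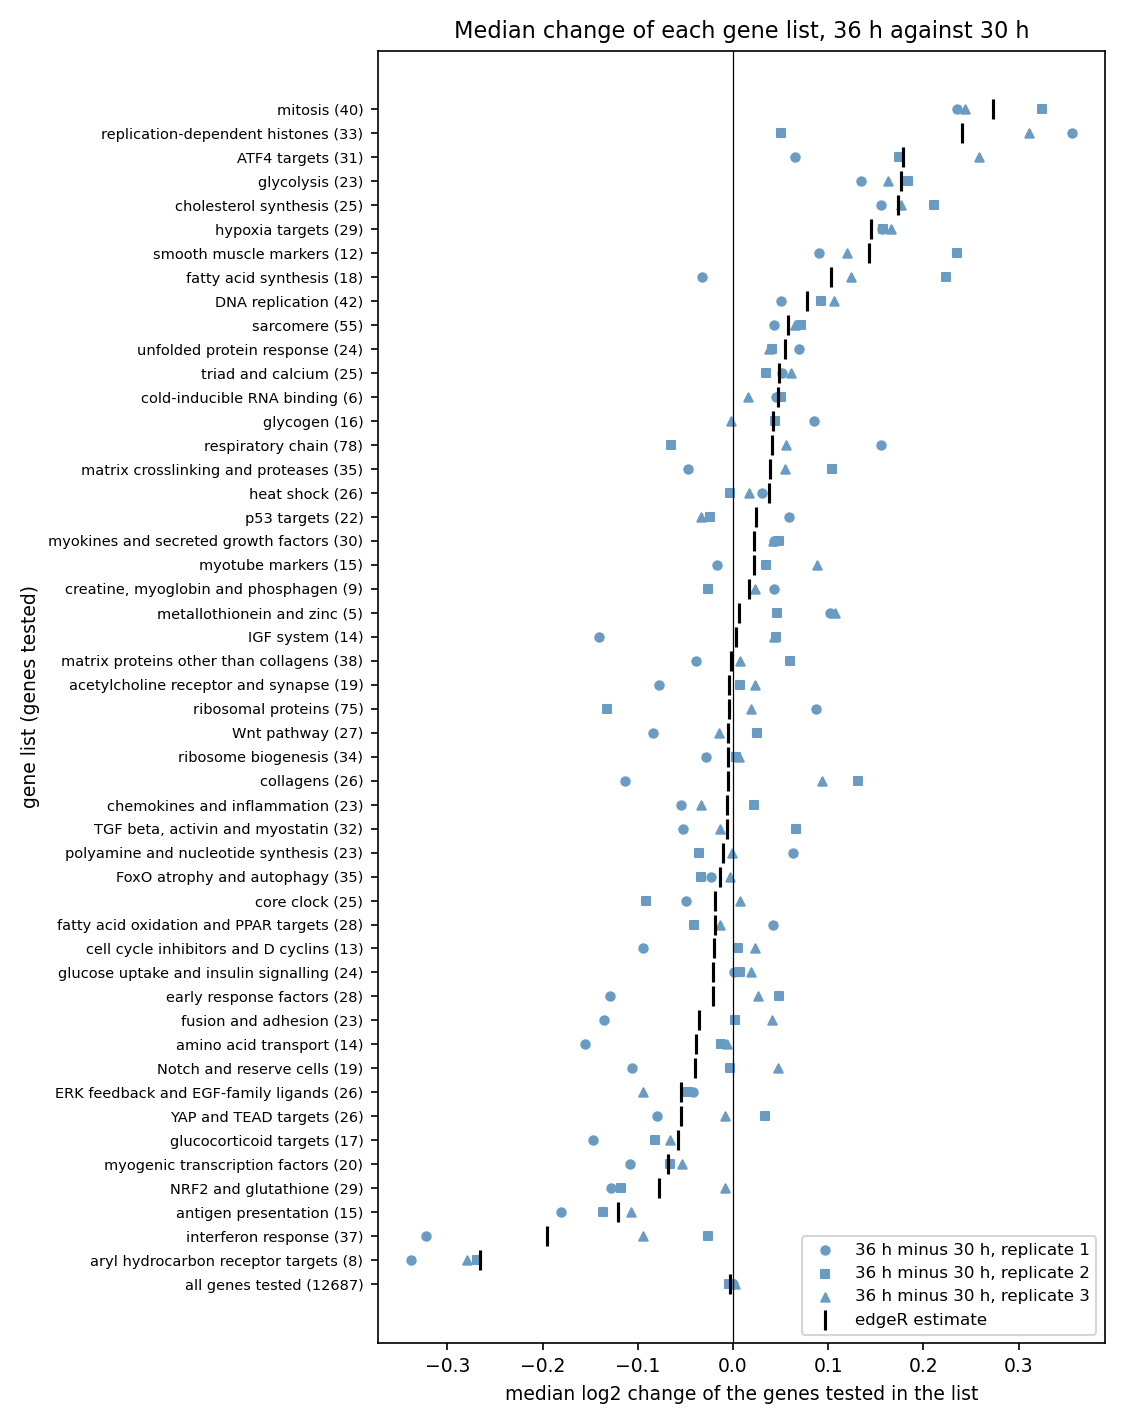
Median log2 change from 30 h to 36 h (horizontal axis) of each list with at least 5 genes tested (rows, number tested in brackets); bars are the edgeR estimate and markers the 3 differences between libraries of the same replicate number. Of these lists, mitosis genes lie highest at 0.27 and aryl hydrocarbon receptor targets lowest at -0.27; all genes tested stand at the bottom.

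The same hours 1 day later offered a comparison that shares no library with the step. From 54 h to 60 h edgeR called 6 genes higher (0.0473% of the genes tested) and 3 lower (0.0236%). Pdk1 and Col25a1 were called higher in both, which is 11.8% of the 17 genes and 33.3% of the 6, and Ahrr was called lower in both. Later estimates had the same sign for 12 of the 17 and for all 7 of the genes that fell. The matching share over all genes tested is not given here, so these counts have no background to be set against.

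Ahrr fell by 1.22 ± 0.20 (SE) on the log2 scale in the later step (adjusted p = 0.00739). Col25a1 changed by 0.94 ± 0.15 (adjusted p = 0.00497) and Pdk1 by 0.57 ± 0.08 (0.00107). These values lay close to their estimates of -1.31, 0.85 and 0.49 in the earlier step. Bnip3, called only with the block at 36 h, was called later without it (0.74, adjusted p = 0.00967).

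Further genes had later estimates of the same sign that did not pass the test. They were 0.59 ± 0.13 (SE) for Slc16a3, 0.58 ± 0.14 for Vldlr, 0.43 ± 0.15 for Cth, 0.32 ± 0.07 for Tgm2, 0.30 ± 0.08 for P4ha1, 0.26 ± 0.05 for Rflnb, -0.31 ± 0.08 for Cyp1b1 and -0.27 ± 0.18 for Aldh3a1 (adjusted p 0.0751 or more). Those of Tagln (-0.13 ± 0.07), Asprv1 (-0.21 ± 0.19) and Kif20a (-0.02 ± 0.08) were below 0, against a rise in the earlier step. The mitosis list, at 0.27 in the earlier step, had a median of -0.10 in the later one with 0 genes called. Hypoxia targets had 0.15 and 0.19. ATF4 targets had 0.18 and -0.0006, with 0 genes called in the later step. The aryl hydrocarbon receptor list had -0.27 and -0.09, with 1 gene called lower in the later step.

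A test of the difference between both steps called 0 genes in edgeR (0% of those tested, with 437 at an unadjusted p under 0.05). DESeq2 called 4, and the replicate block 25 of the 12687 genes tested. This test uses the same 30 h and 36 h libraries by which the 24 genes were called. Genes called for a large earlier change therefore lean toward a difference of that sign, so the overlap is no separate support. The 25 included 7 of the 24 genes: Aldh3a1 (difference -1.04, blocked adjusted p = 0.0236), Tagln (0.57, 0.00406), Col8a2 (0.58, 0.00406), Kif20a (0.45, 0.0199), Asprv1 (1.19, 0.0448), Gja5 (0.41, 0.0429) and Grem1 (-0.37, 0.0421). At 54 h and 60 h the lowest same-number correlation was 0.0777. For Pdk1, Ahrr and Col25a1 the unblocked difference was -0.09 in each (SE 0.11, 0.29 and 0.20), which leaves room for a difference in either direction.

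**Figure D4:**
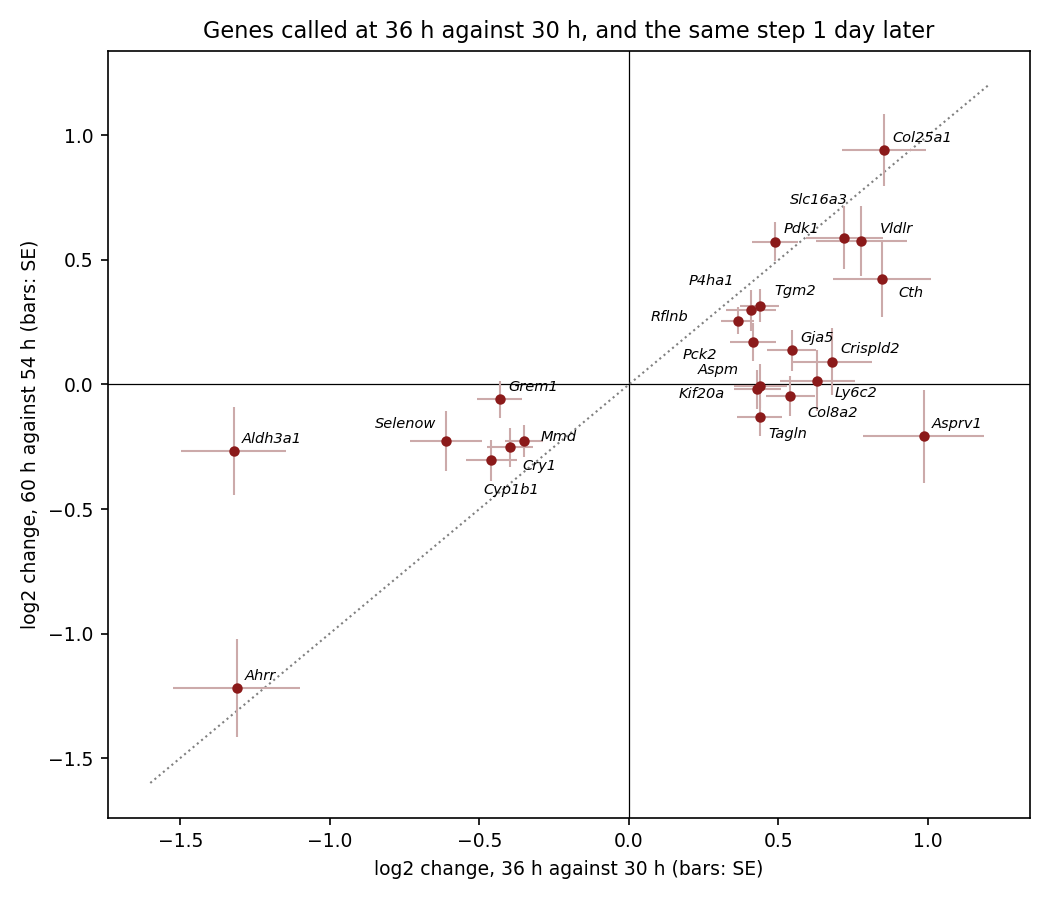
Log2 change of each called gene from 30 h to 36 h (horizontal axis) and from 54 h to 60 h (vertical axis); bars are standard errors and the dotted line marks equal change. Pdk1, Col25a1 and Ahrr lie near the line, while Aldh3a1 lies well above it at a later change of -0.27, and Asprv1 and Tagln have later changes below 0.

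Levels at the 7 other time points were also set against each other as 12, 24, 48 and 60 h over 18, 42 and 54 h, an alternation every 6 h with the same sign as the step, in a contrast that uses no 30 h or 36 h library. Its weights cancel a straight trend over time but not a curved one, so a call need not mean alternation. It called 64 genes higher (0.504% of the genes tested) and 170 lower (1.34%). Of the 17 genes that rose, Pdk1, Rflnb, Slc16a3, Tgm2 and Col25a1 were called in the same direction and Kif20a, Crispld2, Aspm and Col8a2 in the opposite one. Of the 7 that fell, Mmd and Ahrr were called in the same direction and 0 in the opposite. The mitosis list had the opposite sign in this contrast: 24 of its 40 genes were called lower and 0 higher, with a median of -0.26. Kif20a averaged 82.8 CPM at 12 h and 143 CPM at 18 h, and then 129, 136, 134 and 132 CPM at 42, 48, 54 and 60 h. Col8a2 averaged 21.7 CPM at 12 h, 200 CPM at 42 h and 217 CPM at 60 h. What gave these opposite signs was not tested.

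Over the whole course the called genes followed different shapes. Ahrr stayed at 1.48 to 1.80 CPM in its means from 12 h to 24 h and then moved between a high at 30, 42 and 54 h (4.52 ± 0.36, 4.83 ± 0.70 and 5.59 ± 0.27 CPM, SD, n = 3) and a low at 36, 48 and 60 h (1.84 ± 0.72, 2.03 ± 0.34 and 2.39 ± 0.47 CPM). At the later 6 time points, high and low libraries of Ahrr did not overlap. The same held for Cyp1b1, with means of 85.9, 62.5, 75.2, 62.2, 81.2 and 65.7 CPM from 30 h to 60 h. Its lowest high library (70.4 CPM) was only just above its highest low one (69.0 CPM). Pdk1 had the inverse order of Ahrr over the same hours. It went from 49.1 ± 2.5 CPM at 30 h to 68.9 ± 0.30 CPM at 36 h, 49.6 ± 3.3 CPM at 42 h and 64.7 ± 2.0 CPM at 48 h.

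Aldh3a1 followed another course. Its means went from 41.7 ± 3.6 CPM at 12 h to 77.2 ± 20 CPM at 24 h and 48.8 ± 12 CPM at 30 h, and then lay at 17.2 to 21.6 CPM in the means of every time point from 36 h on. The means of Tagln were 554 ± 38 CPM at 12 h and 426 ± 39 CPM at 18 h, went from 469 ± 25 CPM at 24 h through 730 ± 55 CPM at 30 h to 989 ± 69 CPM at 36 h, and lay at 963 to 1105 CPM afterwards. Cth was lowest at 24 h (6.05 ± 1.3 CPM), and its means went through 8.95 ± 1.6 CPM at 30 h and 16.04 ± 3.0 CPM at 36 h to 26.9 ± 2.5 CPM at 60 h, near its 28.4 ± 4.0 CPM at 12 h.

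**Figure D5:**
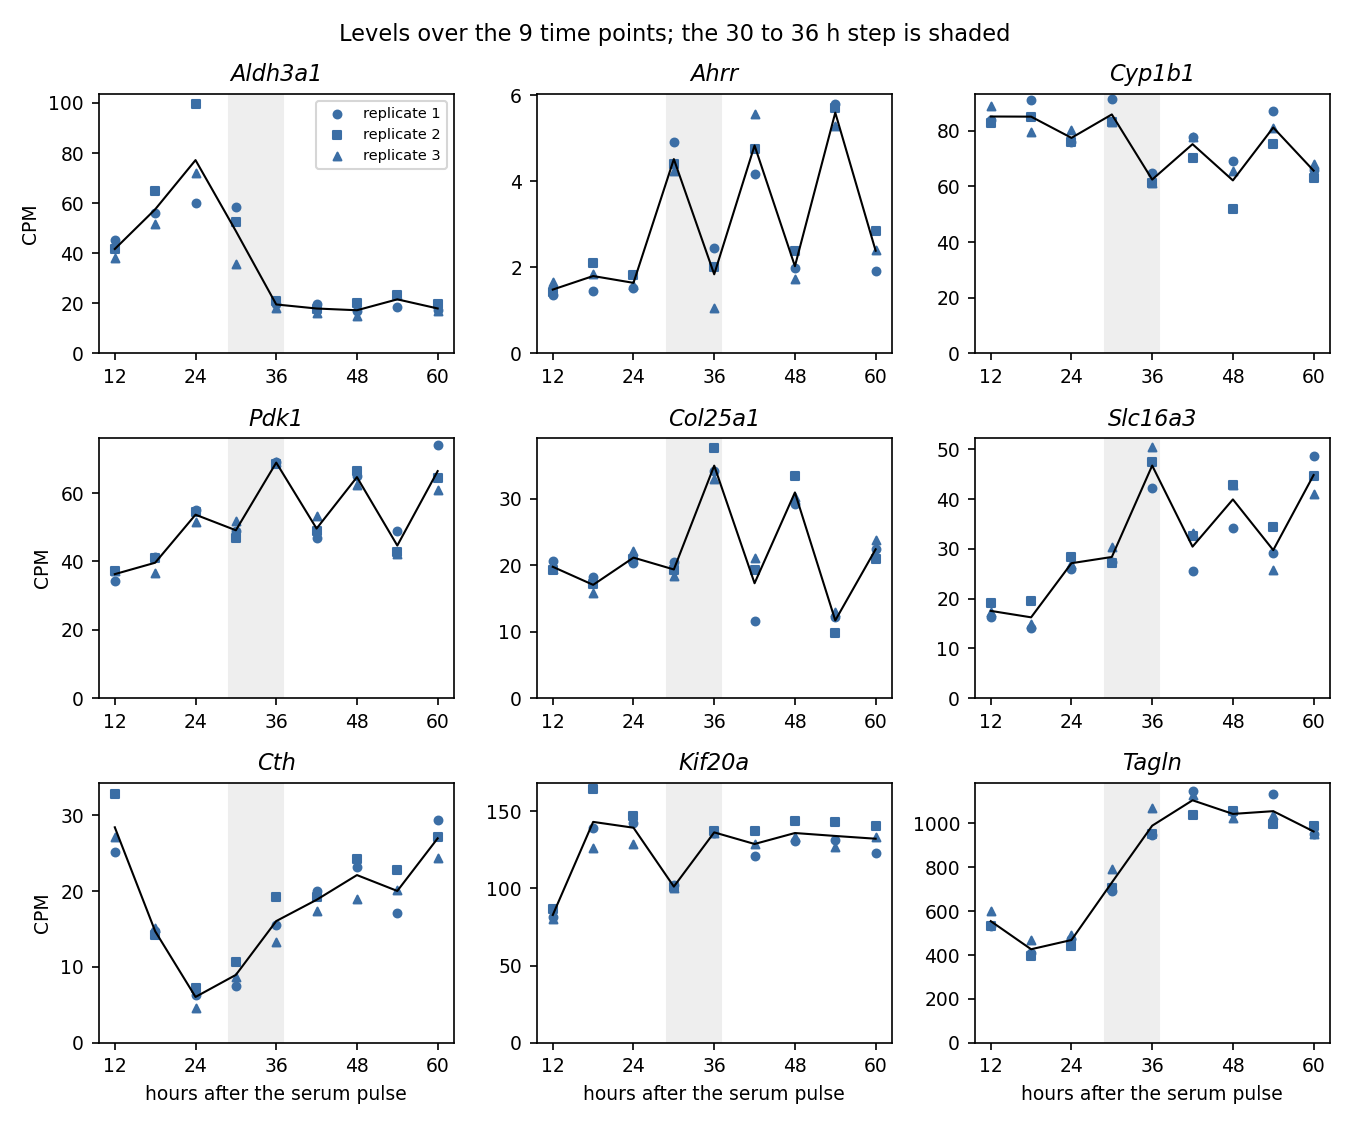
Level in CPM (vertical axes, from 0) of 9 called genes in every library at each of the 9 time points (hours after the pulse); the line joins the means, marker shape gives the replicate number and the 30 h to 36 h step is shaded. Ahrr, Cyp1b1, Pdk1, Col25a1 and Slc16a3 alternate from 30 h on, whereas Aldh3a1 stays low and Tagln high from 36 h on.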

How the data were processed

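Total RNA without ribosomal RNA was sequenced as stranded libraries, per the labels' protocols. The authors deposited raw counts, that is whole reads per Ensembl gene without normalization, for the 27 libraries. Per the submitters' processing notes, Trim Galore 0.4.0, cutadapt 1.9.1, featureCounts and mm10 were used. The aligner, annotation release and strand setting were not given in the sources used here. GENCODE M21 (mm10) matched 20327 of 20446 genes.

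Libraries were grouped by the time and replicate number in their titles. Genes passed edgeR's filterByExpr (minimum count 10), which left out 7759. CPM are counts scaled to TMM library sizes, with a prior count of 2 in log values. The 6 libraries held 15.2 to 23.4 M reads, and the biological coefficient of variation was 11.8% in the fit on all 27 libraries. Fold changes are edgeR's fitted log2 changes put back on the linear scale, and can differ slightly from ratios of mean CPM. The tests used edgeR's quasi-likelihood F statistic with time point as a factor in all 27 libraries, which share 1 estimate of spread (18 residual degrees of freedom), and called genes at p under 0.05 after Benjamini-Hochberg adjustment across every gene tested. Correlations of same-numbered libraries, as deviations from time point means, were all over 0.1 at 30 h and 36 h (91 of 108 such pairs in all time points), so blocked values are given where they change a call. The scripts were tested on simulated counts.

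Genes named were up to 12 called genes each way with the largest change, no overlap of the groups and at least 1 CPM on average, up to 4 called genes per list, all core clock genes and up to 6 for the difference of the steps; predicted genes were not named. Naming list members called only with the block, and leaving out both libraries of 1 number, were added after the data were seen. The step and the 54 gene lists were chosen with earlier results of these data known. Alternatives were DESeq2, limma-voom, median of ratios scaling, 2 other filters, the block, the 6 libraries alone, adjusted p under 0.01 and leaving out each library. The software was edgeR 4.0.16, DESeq2 1.42.0 and limma 3.58.1 in R 4.3.3, with pandas 2.3.3, numpy 2.4.6 and matplotlib 3.10.9.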

Additional observations from a re-analysis of the deposited data

How the results depend on the processing

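All 24 called genes kept their direction under every alternative run, while clock genes with estimates near 0, such as Nr1d1 and Clock, changed sign when single libraries were left out. The counts of genes higher and lower at 36 h were within 1.5 times of 17 and 7 with median of ratios scaling, limma-voom, a mean of at least 1 CPM or no filter, and that scaling left the sign of each list's median as it was. DESeq2 called 38 higher and 18 lower, the replicate block 89 and 42, the 6 libraries alone 0 and 0, the 6 libraries with the block 89 and 33, and adjusted p under 0.01 left 7 and 2. Without 1 library, 6 to 10 were higher and 2 to 4 lower. Leaving out both libraries numbered 1, 2 or 3 at 30 h and 36 h, with the block, gave 28, 22 and 29 higher and 10, 13 and 8 lower, and kept 20 of the 24 genes each time. From 54 h to 60 h, DESeq2 called 18 higher and 13 lower and the block 79 and 56; adjusted p under 0.01 left 1 lower, and leaving out 1 library gave 4 to 7 higher and 0 to 4 lower. The difference of the steps had 4 genes with DESeq2 and 25 with the block. For the alternation, DESeq2 called 114 higher, the block 319 higher and 605 lower, and adjusted p under 0.01 left 29 and 75. Without 12 h, the alternation called 91 higher and 138 lower. Its counts are not given without single libraries. The cause of these shifts was not tested, except that a stricter threshold must call fewer. The block ended no call of the 24 genes. At this depth genes of a few CPM, such as Asprv1 and Vldlr, carry SEs of 0.20 and 0.15.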

Other observations

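Some genes outside the groups above were called only with the replicate block, which called 0.702% of all genes tested higher and 0.331% lower. Of 23 chemokine and inflammation genes, Cxcl5, a neutrophil chemokine, was lower (log2 change -0.98, blocked adjusted p = 0.00603) and Ccl2, a monocyte chemokine, higher (0.84, 0.00750). Cpt1a, the carnitine palmitoyltransferase of liver type, was the only called gene of 28 on the fatty acid oxidation list and was lower (-0.33, 0.01003). Of 38 matrix proteins other than collagens, Fbln5, an elastic fibre protein, and Fmod, a collagen-binding proteoglycan, were higher (0.25, 0.00750, and 0.69, 0.0220). Hbegf, an EGF-family ligand, was higher (0.25, 0.0235), and F3, which encodes tissue factor, was lower (-0.50, 0.0390). These genes were picked from the lists after their blocked values were seen.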
